A study of Saccharomyces cerevisiae with 8 samples.

Results

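Rapamycin was given for 1 h to budding yeast (Saccharomyces cerevisiae, W303 background) whose RNA helicase Dbp2 is fused to FRB and GFP, and the RNA of these cells was compared with that of untreated cells of the same strain. The comparison takes 4 of the 8 libraries of the series, chosen by strain and treatment as labelled: 2 biological replicates of untreated and 2 of treated Dbp2-FRB-GFP cells. The other 4 libraries are the parental strain, without and with the drug, and are used here only to show where the tagged strain differs. Every library comes from MATalpha cells with the tor1-1 allele, a deletion of FPR1 (fpr1::NAT) and the fusion RPL13A-2xFKBP12::TRP1, next to marker alleles of ADE2, TRP1, CAN1, LEU2, HIS3 and URA3. The tagged strain adds DBP2-FRB-GFP-KanMX6, which its labels give in the source name but not in the genotype field. Cells grew in rich medium (YPD) at 30 °C to an OD600 of 0.5, rapamycin was used at 1 µg/mL, and the labels name no vehicle control. RNA was extracted with hot phenol and depleted of rRNA, and 125 ng went into a stranded total RNA library. The series title concerns the dependence of long noncoding RNAs degraded by the exonuclease Xrn1 on nuclear Dbp2.

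Dbp2 is a DEAD-box helicase that acts on nascent transcripts, helps to load the export factors Yra1 and Mex67 onto mRNA and is known for roles in transcription termination and nuclear RNA quality control. In the anchor-away method rapamycin links the FRB tag of a nuclear protein with FKBP12 fused to Rpl13A, a ribosomal protein that leaves the nucleus with newly made ribosomal subunits. The tor1-1 allele and the loss of Fpr1, the main rapamycin-binding protein of yeast, are used so that the drug does not act through TORC1. Noncoding transcripts of yeast are named after the activity that limits them: XUTs accumulate without the cytoplasmic exonuclease Xrn1, CUTs without the nuclear exosome, and NUTs when Nrd1-dependent termination fails.

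The file held 10799 yeast features, of which 9640 passed a filter on low values and were tested. Values are read densities, in reads per nucleotide, that the authors scaled to added ERCC spike-in RNAs, so a change is a change relative to the spike-ins. Libraries held 22523078 to 27500113 yeast reads and 747342 to 1267031 spike-in reads. A feature is called when limma, fitted over all features, gives it an adjusted p under 0.05, and a fold change is given as log2 with its standard error, computed on log2(density + 0.007347), a scale that understates changes of low features. As a check of the mating type, STE3, the a-factor receptor gene of MATalpha cells, had densities of 3.0 and 2.91 in untreated and 2.93 and 2.42 in treated tagged cells, while STE6, the a-factor exporter of the other mating type, stayed between 0.0682 and 0.101.

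DBP2 itself was read in every library. Its density was 3.05 and 3.03 in the untreated tagged libraries and 4.33 and 2.86 in the treated ones, against 2.42 and 2.61 in untreated and 2.29 and 2.59 in treated parental cells. The treated replicates lay on both sides of the untreated ones, and the difference of 0.21 ± 0.16 was not called (limma adjusted p = 0.266). It was called without treated replicate 2 (0.0131) and was −0.085 without treated replicate 1 and −0.14 after scaling to protein-coding features. Anchor-away moves the protein and not the RNA, so these levels say nothing of the depletion, which was not measured here. The neighbouring gene RPC19, shared by RNA polymerases I and III, stood at 0.24 ± 0.16 and CYB5, cytochrome b5, at 0.41 ± 0.16, neither called (0.224 and 0.0661), and both were called without treated replicate 2 (0.0146 and 0.00597). The genotype markers TOR1 (0.23 ± 0.15), FPR1 (−0.29 ± 0.16) and RPL13A (0.27 ± 0.14) were not called either. FPR1 held 74 to 122 reads in the 4 tagged libraries although the labels give it as deleted, and the position of these reads within the gene is not shown by the file. RPL13A was called without treated replicate 2 (0.0498).

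After rapamycin most of the transcriptome stood higher against the spike-ins. Yeast reads per spike-in read were 28.2 and 26.4 in untreated and 33.1 and 30.4 in treated tagged libraries, and 21.5, 24.6, 23.7 and 24.9 in the parental libraries. The median feature was 1.25-fold higher (log2 0.324), and 9100 of 9640 features (94.4%) were above 0, against a median of 0.103 in parental cells. The parental median was 0.003 without parental untreated replicate 1, 0.201 without replicate 2 and 0.075 to 0.137 without a treated replicate. In bulk RNA a change in the number of cells and a change in the RNA of each cell cannot be told apart, and the sources used here do not say at which step the spike-ins were added. The treated replicates differed in this shift: relative to the untreated mean the median feature was 0.43 higher in treated replicate 1 and 0.225 higher in replicate 2. The treated pair also differed most between its members, with a chi-square per degree of freedom of 20.1 over features, against 5.01 to 9.17 in the other 3 groups. The shift was of similar size at all levels, with medians of 0.278, 0.315, 0.35, 0.333 and 0.317 over 5 equal groups of features from the least to the most abundant.

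Protein-coding features had a median of 0.339, XUTs of 0.298, CUTs of 0.295, NUTs of 0.267 and features of the mitochondrial genome of 0.274. The snoRNAs, stable guides of rRNA modification, had a median of 0.02, and their medians in the treated libraries were −0.068 and 0.056. The classes other than snoRNAs were thus above 0 in both treated libraries. After scaling each library to its protein-coding features the medians were −0.008 for protein-coding features, −0.013 for XUTs, −0.021 for CUTs, −0.036 for NUTs and −0.334 for snoRNAs. With libraries scaled to snoRNAs the median of all features was 0.325, and with quantile normalization it was −0.002. The split of calls moved with it: 1369 features were called higher and 14 lower on the spike-in scale, 5 (0.0519%) and 13 (0.135%) when scaled to protein-coding features, 171 and 12 when scaled to snoRNAs and 2 and 3 after quantile normalization.

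**Figure D1:**
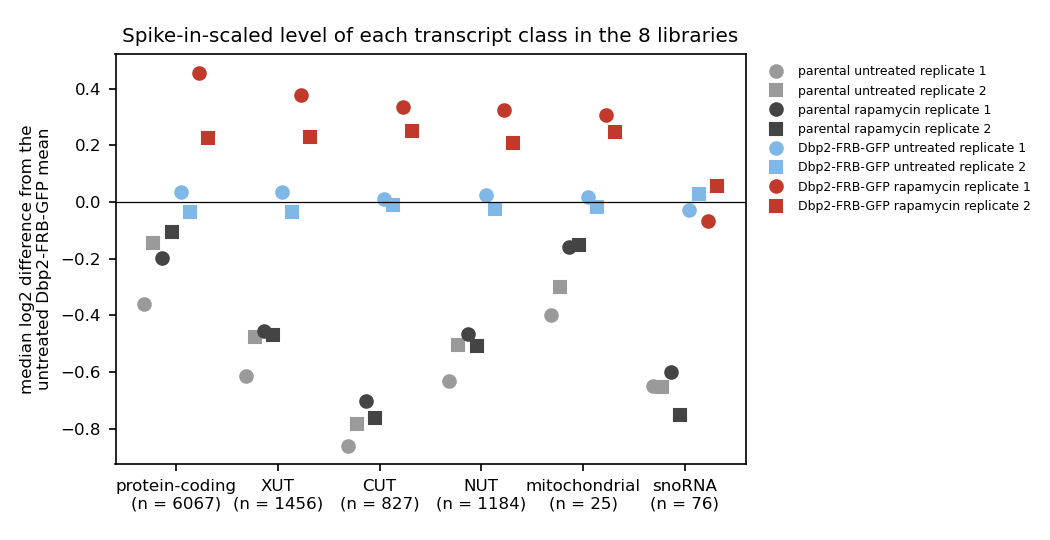
Median log2 difference of each transcript class from the mean of the 2 untreated Dbp2-FRB-GFP libraries, by class (n features) on the x axis, with 1 point per library. The treated tagged libraries lie above 0 for all classes but snoRNAs, and replicate 1 lies above replicate 2 except for snoRNAs.

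The plot of class medians by library shows the treated tagged libraries above the untreated ones in every class but the snoRNAs. Parental libraries lay below the tagged ones in all classes, between −0.145 and −0.361 for protein-coding features and between −0.782 and −0.86 for CUTs without the drug.

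On the spike-in scale limma called 1369 features higher, which is 14.2% of those tested, and 14 lower (0.145%). Of these 39 rose and 4 fell at least 2-fold. Both treated libraries lay above both untreated ones for 7393 features (76.7%) and below them for 116 (1.2%). The number of calls turned on single libraries. Features called higher numbered 344 without untreated replicate 1, 112 without untreated replicate 2, 232 without treated replicate 1 and 4689 without treated replicate 2, and those called lower numbered 14, 11, 30 and 37. Features called higher in the fit over all libraries and in each of these 4 fits numbered 48 (0.498%), and 3 (0.0311%) were called lower in all 5 fits. These features were chosen after their values were seen. A fit without 1 library takes the spread of that library's group from the other groups. It can thus be less strict than the fit over all libraries, and calls kept in all 5 fits are not independent support. Those 48 had a median log2 fold change of 1.007 and a range of 0.80 to 2.12, their median in parental cells was 0.321, and 12 of them had fewer than 20 reads in both untreated libraries. That all 48 were above 0 after scaling to protein-coding features is no further support. Their lowest value exceeded the shift of that scaling, by which the median of all features went from 0.324 to −0.013. Of the 48, snR56, NUT0013 and NUT1082 were called after that scaling (limma adjusted p = 0.00754, 0.0184 and 0.0337).

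**Figure D2:**
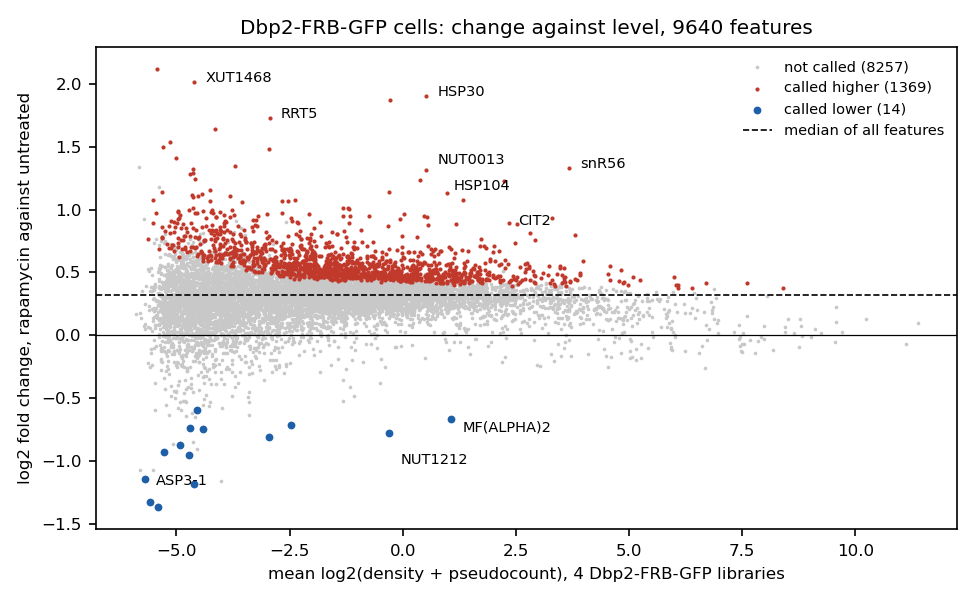
Log2 fold change after rapamycin in Dbp2-FRB-GFP cells against the mean log2(density + pseudocount) of the 4 tagged libraries, with 1 point for each of 9640 features; red marks the 1369 called higher, blue the 14 called lower, and the dashed line the median of all features. Most points lie above 0 at every level, and few lie far from the dashed line.

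The plot of change against level shows the general shift as the distance of the dashed line from 0. Some of the largest rises rest on few reads. From untreated to treated tagged libraries YDR371C-A went from 0 and 1 to 6 and 2 reads (2.12 ± 0.37). YPL152W-A went from 3 and 2 to 8 and 7 (1.64 ± 0.45) and XUT0438 from 9 and 8 to 22 and 17 (1.345 ± 0.275). The features described next lie far from the dashed line or belong to a list of genes with a shared role.

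The feature with the lowest p was snR56, a snoRNA that guides methylation of small-subunit rRNA. Its density was 7.96 and 8.15 in untreated and 20.8 and 19.8 in treated tagged cells, against 2.13 and 2.40 in untreated and 2.53 and 2.34 in treated parental cells. Treated libraries thus lay far above untreated ones in the tagged strain, while the parental groups overlapped. Of 76 snoRNAs, snR56 was 1 of 2 called higher (2.63%, against 14.2% of all features). Its rise was 1.33 ± 0.13 (limma adjusted p = 5.6e-06), and it stayed called without each of the 4 libraries and with protein-coding scaling (0.98, 0.00754). The gene is shown because this call stood in each of those fits; capitals mark its box C (NTGATGA) and box D (CTGA) letters, searched on the gene's strand, and the sequence is the RefSeq R64 genome at chrII:88190-88277, plus strand.
snR56: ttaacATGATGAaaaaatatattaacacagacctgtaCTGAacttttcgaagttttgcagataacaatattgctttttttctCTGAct

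Both sets of letters were found in 43 of 76 snoRNA genes (56.6%), whose median was 0.093, against −0.015 for the others. Its annotated neighbours AAR2 and RPS8A lie 400 nt to the left and 245 nt to the right, both on the minus strand. NUT0013 moved like snR56: its density was 0.874 and 0.927 in untreated and 2.28 and 2.22 in treated tagged cells, a rise of 1.31 ± 0.14 (adjusted p = 1.93e-05) called without each library. It held 1.28 to 1.42 reads per snR56 read in each of the 8 libraries. The coordinates of NUTs were not used here, so whether the features share reads was not tested. The other called snoRNA was snR78, part of a polycistronic cluster, at 12.5 and 13.2 in untreated and 20.4 and 18.3 in treated cells (0.59 ± 0.13, adjusted p = 0.0143). That call was lost without untreated replicate 1 (0.0811), untreated replicate 2 (0.075) or treated replicate 1 (0.0501).

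The XUTs, the class named in the series title, moved with the rest of the transcriptome. Of 1456 tested XUTs 147 were called higher (10.1%, against 14.2% of all features) and 2 lower (0.137%, against 0.145%). The middle of the class, from the 25th to the 75th percentile, ran from 0.155 to 0.45. After scaling to protein-coding features no XUT was called by limma in either direction, while 52 were higher and 73 lower at an unadjusted p under 0.05. With voom on recovered reads 261 were called higher on the spike-in scale. XUT medians without untreated replicates 1 and 2 and treated replicates 1 and 2 were 0.328, 0.269, 0.228 and 0.378. Those of all features were 0.352, 0.292, 0.225 and 0.43. XUT calls higher numbered 76, 26, 36 and 377 when untreated replicate 1, untreated replicate 2, treated replicate 1 and treated replicate 2 were left out in turn, and 8 XUTs were called higher in all 5 fits (0.549%, against 0.498% of all features). XUTs called higher had a median of 30.0 reads in untreated tagged libraries, so counting error is large for many of them.

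Among the XUTs with the lowest p, XUT0297 had densities of 0.157 and 0.169 in untreated and 0.316 and 0.332 in treated cells. It rose by 0.96 ± 0.16 (limma adjusted p = 0.00252) and stood at −0.08 in parental cells. XUT1258 rose by 0.90 ± 0.16 and XUT0267 by 1.16 ± 0.20. XUT1468 had 3 and 3 reads in untreated and 15 and 13 in treated cells (2.02 ± 0.24), and XUT0930 had 6 and 4 against 18 and 12 (1.41 ± 0.26). These 5 were called in all 5 fits, and none was called after scaling to protein-coding features (0.055 to 0.268). Both XUTs called lower had 10 reads in each untreated library: XUT1349 fell by 0.74 ± 0.24 to 6 and 3 reads and XUT0777 by 0.59 ± 0.19 to 6 and 4. Neither call held without untreated replicate 1 (0.113 and 0.125), untreated replicate 2 (0.235 and 0.259) or treated replicate 2 (0.189 and 0.109).

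Of 827 CUTs 86 were called higher (10.4%) and 2 lower (0.242%), and of 1184 NUTs 66 were higher (5.57%) and 2 lower (0.169%). Over all features the shares were 14.2% higher and 0.145% lower, so neither class had more than its share of rises. Calls of both classes turned on single libraries. CUT medians without untreated replicates 1 and 2 and treated replicates 1 and 2 were 0.302, 0.275, 0.251 and 0.335. NUT medians were 0.287, 0.241, 0.207 and 0.325, and those of all features 0.352, 0.292, 0.225 and 0.43. CUT866 was the most abundant of the CUTs with the lowest p. It had densities of 0.971 and 0.923 in untreated and 1.67 and 1.59 in treated cells, a rise of 0.78 ± 0.15 (adjusted p = 0.00601) that was lost without untreated replicate 2 (0.0551). CUT732 (0.97 ± 0.18), CUT639 (0.94 ± 0.18) and CUT904 (0.83 ± 0.16) rose in all 5 fits. Among NUTs, NUT1082 went from 0.418 and 0.422 to 0.832 and 0.805, a rise of 0.95 ± 0.15 against 0.10 in parental cells. It was called after scaling to protein-coding features too (0.60, adjusted p = 0.0337). NUT0117 rose by 1.08 ± 0.17. NUT0864 rose by 1.87 ± 0.26, and its reads differed from those of the protein-coding gene HSP30 by at most 3.99% in any library, so these 2 features may hold the same reads. NUT1212 was the most abundant noncoding feature called lower: from 1.07 and 1.04 it fell to 0.643 and 0.583, by 0.78 ± 0.15 (adjusted p = 0.00601), in all 5 fits. Its parental densities overlapped, at 0.946 and 1.11 without and 0.869 and 1.05 with the drug. After scaling to protein-coding features NUT1212 stood at −1.13 (0.00216). NUT0265 fell by 1.37 ± 0.28, from 9 and 10 reads to 3 and 1.

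Heat shock and stress genes were among the protein-coding genes that rose most. Of 24 targets of the heat shock factor Hsf1, chiefly chaperone genes, 16 were called higher (66.7%, against 14.2%) and 0 lower, with a median of 0.488 against 0.324 for all features and 0.129 in parental cells. Of 42 general stress genes under Msn2 and Msn4, the activators of the environmental stress response, 22 were called higher (52.4%) and 0 lower, with a median of 0.464. The medians of these lists in treated replicates 1 and 2 were 0.464 and 0.431 for heat shock and 0.414 and 0.476 for stress genes. Those of all features were 0.43 and 0.225. Both lists thus stood clearly above all features in treated replicate 2 only, and stress genes were below all features in treated replicate 1. The untreated replicates were 0.053 and −0.053 for heat shock and stood further apart for stress genes, at 0.186 and −0.186. The median change of stress genes was thus 0.646 without untreated replicate 1 and 0.308 without untreated replicate 2, the latter beside 0.292 for all features. After scaling to protein-coding features the medians were 0.136 and 0.113, and 0 members of either list were called. The heat shock medians were 0.498 and 0.421 without untreated replicates 1 and 2, beside 0.352 and 0.292 for all features. Calls of both lists turned on single libraries.

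HSP30, which encodes a plasma membrane protein that restrains the proton pump Pma1, had densities of 0.888 and 0.607 in untreated and 1.75 and 4.39 in treated cells, a rise of 1.90 ± 0.26 (limma adjusted p = 0.000367). The disaggregase gene HSP104 had 1.95 and 1.54 in untreated and 2.63 and 5.06 in treated cells, a rise of 1.07 ± 0.20 (0.00601). HSP82, an Hsp90 chaperone gene, went from 0.763 and 0.676 to 1.03 and 1.92 (0.96 ± 0.19). In these 3 genes treated replicate 2 was the higher, the reverse of the general shift, and the parental changes were 0.47, 0.24 and 0.14. A fit that leaves out 1 treated library also leaves out this spread between treated replicates. CUR1, which sorts misfolded proteins, rose by 0.90 ± 0.17. These 4 genes were called in all 5 fits. HSP42, a small heat shock protein gene, went from 0.652 and 0.524 to 0.924 and 1.25 (0.87 ± 0.16, adjusted p = 0.00574), and TPS1, which makes trehalose 6-phosphate, from 2.72 and 2.39 to 3.95 and 4.40 (0.71 ± 0.14, 0.00601). Both calls were lost without untreated replicate 2 (0.0638 and 0.109).

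Proteasome genes were among the lists with many members called, each by a small change. The 34 genes counted here as proteasome genes are those of the proteasome and its activator Rpn4, and they also take in UBI4 and CDC48. Of these 34 genes 21 were called higher (61.8%, against 14.2% of all features) and 0 lower. The list's median was 0.44, with 0.102 in parental cells and 0.086 after scaling to protein-coding features, where 0 were called. The list's medians in treated replicates 1 and 2 were 0.552 and 0.338. The polyubiquitin gene UBI4 led them, with 4.69 and 3.99 in untreated and 7.03 and 7.36 in treated cells, a rise of 0.73 ± 0.13 (limma adjusted p = 0.00408) that was lost without untreated replicate 2 (0.0953). Subunit genes followed: PRE5 of the core particle went from 4.06 and 3.87 to 6.12 and 5.43 (0.54 ± 0.14, 0.0262), PUP2 rose by 0.49 ± 0.14 and RPN9 of the lid by 0.50 ± 0.14. These 3 calls were lost without untreated replicate 1 (0.0805 to 0.129), untreated replicate 2 (0.231 to 0.259) or treated replicate 1 (0.106 to 0.167). The list's calls thus turned on single libraries. Its medians without untreated replicates 1 and 2 and treated replicates 1 and 2 were 0.469, 0.418, 0.338 and 0.552. Those of all features were 0.352, 0.292, 0.225 and 0.43.

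Sequences upstream of 4 genes are shown because each holds the letters known for the factor of its list. Among called list members with these letters, the one with the largest change relative to its standard error was taken, and no gene was used again. In each sequence only the element of that list is marked, and matches to the other elements stay in lower case. Each is the stretch from 350 to 150 nt before the coding start in the RefSeq R64 genome, read on the gene's strand, with matches in capitals: the heat shock element GAANNTTC for HSP42 (chrIV:806271-806471, plus strand), the stress element AGGGG for HSP104 (chrXII:88273-88473, plus strand), the proteasome element GGTGGCAAA for UBI4 (chrXII:65357-65557, minus strand), where it is found on the reverse strand, and the retrograde box GTCAC for CIT2 (chrIII:122478-122678, minus strand), found once as such and otherwise on the reverse strand, where it reads GTGAC.
HSP42: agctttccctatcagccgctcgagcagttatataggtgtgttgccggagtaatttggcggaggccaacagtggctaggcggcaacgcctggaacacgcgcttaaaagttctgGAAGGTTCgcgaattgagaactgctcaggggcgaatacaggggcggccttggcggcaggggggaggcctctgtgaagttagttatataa
HSP104: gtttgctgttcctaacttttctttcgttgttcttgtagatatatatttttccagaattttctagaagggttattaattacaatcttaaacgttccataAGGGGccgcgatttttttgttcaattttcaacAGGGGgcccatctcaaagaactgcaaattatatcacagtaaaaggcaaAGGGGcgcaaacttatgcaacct
UBI4: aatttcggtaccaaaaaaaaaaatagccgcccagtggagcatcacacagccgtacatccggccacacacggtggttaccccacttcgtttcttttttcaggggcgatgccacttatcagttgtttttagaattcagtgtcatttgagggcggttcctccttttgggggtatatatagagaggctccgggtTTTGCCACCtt
CIT2: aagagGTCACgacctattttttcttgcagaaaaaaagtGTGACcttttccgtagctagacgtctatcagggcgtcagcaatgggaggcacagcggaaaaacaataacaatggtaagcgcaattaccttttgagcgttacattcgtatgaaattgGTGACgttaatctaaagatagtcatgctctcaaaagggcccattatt

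The letters were counted on both strands over the 300 nt from 350 to 51 nt before the coding start of 5670 protein-coding features. GAANNTTC was found in 12.2% of them and in 66.7% of the heat shock list, AGGGG in 23.4% and in 85.7% of the stress list, GGTGGCAAA in 1.3% and in 85.3% of the proteasome list, and GTCAC in 27.6% and in 5 of 10 genes of the retrograde list. Outside the list concerned, 16.6% of features with GAANNTTC, 23.8% with AGGGG, 28.6% with GGTGGCAAA (12 of 42) and 16.7% with GTCAC were called higher, against 17.6% of all protein-coding features. These are descriptions of letters in a window, and lists of such genes were drawn up with these elements known.

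**Figure D3:**
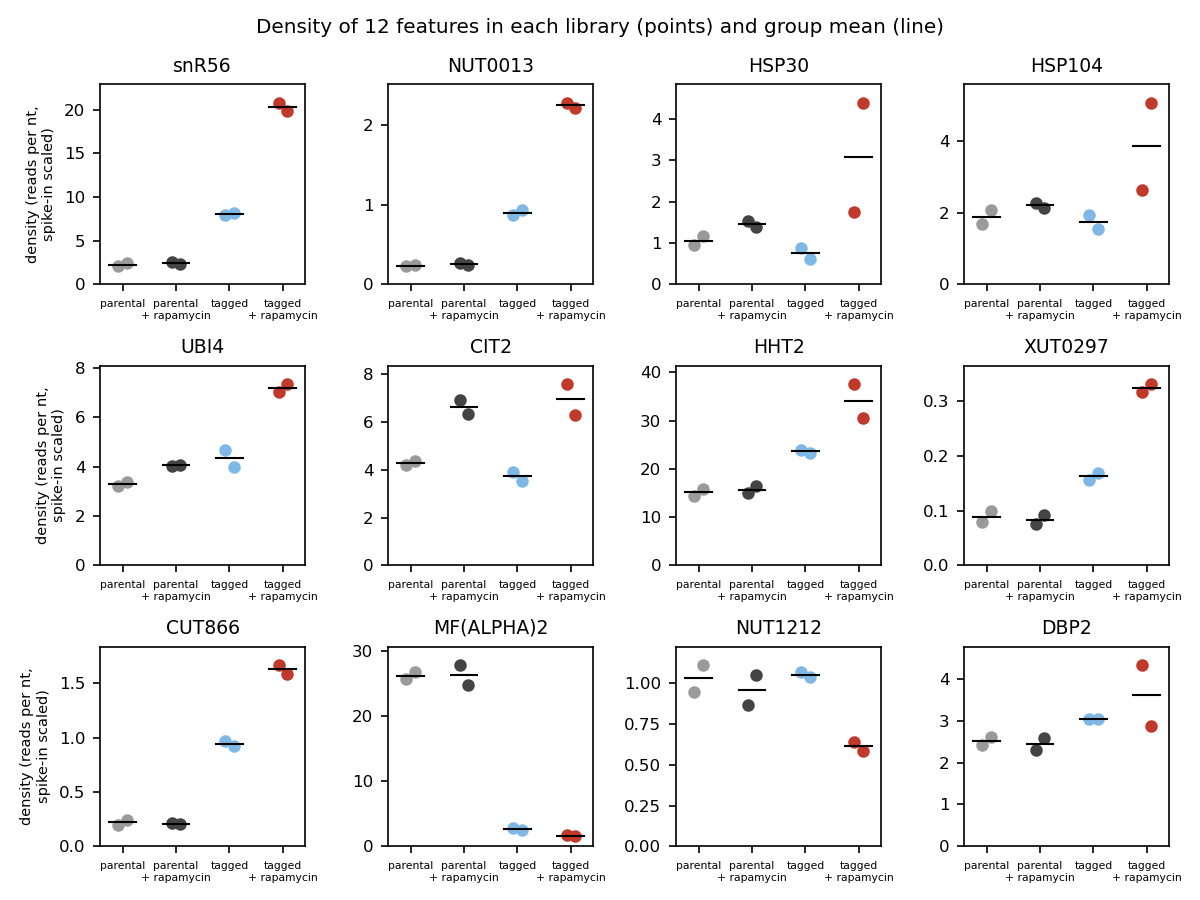
Spike-in-scaled density, in reads per nucleotide, of 12 features in each of the 8 libraries (points) with the mean of each group (line); each panel has its own y axis, starting at 0. snR56, NUT0013 and NUT1212 separate the treated tagged libraries from the rest, HSP30 and HSP104 spread most between treated replicates, and CIT2 is higher with rapamycin in both strains.

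The panels of densities by library set the genes with close replicates, such as snR56, beside those whose treated replicates lie far apart. In the parental strain UBI4 was 3.23 and 3.40 without and 4.04 and 4.07 with rapamycin, and the treated parental libraries lay between both untreated tagged ones.

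Mitochondrial retrograde genes, which the activators Rtg1 and Rtg3 induce when mitochondria falter, were called higher in 5 of 10 cases, against 14.2% of all features, and in 0 lower. Their median was 0.446, against 0.324 for all features (0.284 in parental cells, 0.098 after scaling to protein-coding features). CIT2, the peroxisomal citrate synthase and standard reporter of this pathway, went from 3.90 and 3.54 to 7.60 and 6.28, by 0.89 ± 0.14 (limma adjusted p = 0.0011) in all 5 fits, and from 4.20 and 4.37 to 6.91 and 6.32 in parental cells. IDH2, a subunit of isocitrate dehydrogenase, rose by 0.69 ± 0.14 (0.00841), DLD3, a cytoplasmic D-lactate dehydrogenase, by 0.61 ± 0.14 and aconitase ACO1 by 0.54 ± 0.13. Without untreated replicate 2 these 3 were not called. The list's medians without untreated replicates 1 and 2 and treated replicates 1 and 2 were 0.485, 0.432, 0.343 and 0.568. Those of all features were 0.352, 0.292, 0.225 and 0.43. DLD3 (0.0699) and ACO1 (0.079) were also lost without treated replicate 1, and ACO1 without untreated replicate 1 (0.0516).

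Of 34 amino acid synthesis targets of Gcn4 13 were called higher (38.2%, against 14.2% of all features) and 0 lower, with a median of 0.391 against 0.324. ARG1, argininosuccinate synthetase, went from 0.422 and 0.392 to 0.750 and 0.623 (0.74 ± 0.15, adjusted p = 0.00849), and the histidine synthesis gene HIS5 rose by 0.63 ± 0.14. Without untreated replicate 2 neither was called (0.0818 and 0.175), and HIS5 was lost without treated replicate 1 as well (0.0564). Of 42 genes of the respiratory chain and ATP synthase 13 were called higher (31.0%, median 0.364). CYC7, the minor cytochrome c, rose by 0.65 ± 0.15 against −0.06 in parental cells, and CYB2, which feeds electrons from lactate to cytochrome c, by 0.68 ± 0.16. Both were lost without untreated replicate 2 (0.234 and 0.205). Medians without untreated replicates 1 and 2 and treated replicates 1 and 2 were 0.437, 0.357, 0.254 and 0.545 for Gcn4 targets. For respiratory genes they were 0.403, 0.32, 0.258 and 0.471, and for all features 0.352, 0.292, 0.225 and 0.43. Calls of both lists turned on single libraries, and 0 of either list were called after scaling to protein-coding features.

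Nitrogen-catabolite genes, which inhibition of TORC1 by rapamycin is known to induce, stood near the background in tagged cells. There 5 of 30 were called higher (16.7%, against 14.2% of all features), with a median of 0.363 against 0.324. In parental cells their median was 0.241, against 0.103 for all features. Of the 30 genes 29 were above 0 in parental cells, against 7559 of 9640 features, and 0 were called. DAL80, a repressor within this pathway, went from 0.118 and 0.123 to 0.209 and 0.189 (0.69 ± 0.15, limma adjusted p = 0.0126), and its parental change was 0.64. It was lost without untreated replicate 1 (0.0666) or 2 (0.0729). DAL5, the allantoate permease, rose by 0.55 ± 0.16 and stood at 0.81 in parental cells. It was lost without untreated replicate 1 (0.1), untreated replicate 2 (0.262) or treated replicate 1 (0.174). Of 25 autophagy genes 6 were called higher (24.0%), among them ATG8, the ubiquitin-like protein of the autophagosome (0.70 ± 0.15, 0.0116, and 0.227 without untreated replicate 2). Calls of both lists turned on single libraries. The medians without untreated replicates 1 and 2 and treated replicates 1 and 2 were 0.371, 0.319, 0.22 and 0.469 for nitrogen genes. They were 0.428, 0.273, 0.238 and 0.414 for autophagy genes and 0.352, 0.292, 0.225 and 0.43 for all features.

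Several genes called in all 5 fits belong to no list above; except PST1 they were named after their values were seen. YRO2, a membrane protein gene related to HSP30, went from 3.26 and 2.92 to 5.71 and 9.20, by 1.23 ± 0.17 (limma adjusted p = 0.000413). TPO2, a polyamine exporter, rose by 0.88 ± 0.15, TDA6 by 1.24 ± 0.17, CIP1, an inhibitor of cyclin-dependent kinase, by 1.14 ± 0.18, and PIC2, a mitochondrial copper and phosphate carrier, by 0.89 ± 0.15. In each of these 5 treated replicate 2 was the higher. SPO24, a small protein of sporulation, went from 7.38 and 6.95 to 14.1 and 13.3 (0.93 ± 0.13, 0.000415), and PST1, a cell wall protein, from 5.76 and 4.91 to 9.19 and 9.53 (0.81 ± 0.13, 0.00186), with parental changes of 0.54 each. ATP8, a subunit of ATP synthase encoded in the mitochondrial genome, had 47 and 42 reads in untreated and 71 and 76 in treated cells (1.014 ± 0.18).

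Histone genes were called higher in 6 of 10 cases (60.0%, against 14.2% of all features), with 0 lower and a median of 0.415, while their parental median was −0.01. HTB2, a histone H2B gene, went from 9.11 and 9.32 to 14.1 and 12.6 (0.53 ± 0.13, limma adjusted p = 0.0239), and the H3 gene HHT2 from 23.9 and 23.4 to 37.6 and 30.5 (0.52 ± 0.13, 0.0243). Both calls, like all 6 of the list, were lost without untreated replicate 1, untreated replicate 2 or treated replicate 1. The list's median without treated replicate 2 was 0.534, against 0.43 for all features. Without treated replicate 1 it was 0.284, against 0.225. Most histone genes have a copy of similar sequence, and whether reads of 1 copy were counted for the other was not tested. After scaling to protein-coding features the median was 0.061 with 0 called.

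By median, genes of Dbp2's own surroundings did not stand far from the background of 0.324 for all features and 0.339 for protein-coding features. Of all features 14.2% were called higher, and of protein-coding features 17.6%. The lists below, except the first, had smaller shares than these. Of 23 mRNP export and poly(A) factor genes 5 were called higher (21.7%, median 0.373), among them NPL3, an mRNA-binding protein of export (0.49 ± 0.14, limma adjusted p = 0.0376), and YRA2, a relative of the export adaptor gene YRA1 (0.49 ± 0.15, 0.042). Of 26 genes of nuclear termination and the exosome 2 were called (7.69%, median 0.297): RTT103, a termination factor that binds the polymerase tail, at 0.51 ± 0.15, and PCF11, of the cleavage complex, at 0.53 ± 0.16. Of 29 genes of cytoplasmic decay, decapping and nonsense-mediated decay 2 were called (6.90%, median 0.355), and of 25 DEAD-box helicase genes 1, DBP6, which acts in assembly of the large ribosomal subunit (4.0%, median 0.29). Each of these 10 calls was lost without untreated replicate 1, untreated replicate 2 or treated replicate 1. Left-out adjusted p for NPL3, YRA2, RTT103, PCF11 and DBP6 ran from 0.0772 to 0.316. Without treated replicate 2 the medians of the 4 lists were 0.494, 0.509, 0.48 and 0.505, against 0.43 for all and 0.456 for protein-coding features. Without treated replicate 1 they were 0.255, 0.123, 0.212 and 0.107, against 0.225 and 0.227.

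Ribosome genes split the treated replicates. Large-subunit ribosomal protein genes had 3 of 82 called higher (3.66%) and a median of 0.205, and small-subunit genes 2 of 56 (3.57%) and 0.185, both under the all-feature median of 0.324, with −0.149 and −0.169 after scaling to protein-coding features. With quantile normalization they stood at −0.002 and −0.031, against −0.002 for all features. Genes that assemble the small subunit stood at a median of 0.268 (4 of 42 called, 9.52%), and those that assemble the large subunit at 0.289 (3 of 50, 6.0%). Each of these ribosomal protein and assembly lists had a smaller share called higher than all features (14.2%) or protein-coding features (17.6%). For these assembly lists the medians were 0.499 and 0.519 in treated replicate 1 and 0.065 and 0.067 in replicate 2, a wider gap than the 0.43 and 0.225 of all features. The calls of these lists turned on single libraries, as did those of all features. Without treated replicate 2 the ribosomal protein medians were 0.328 and 0.311, against 0.43 for all features. Without treated replicate 1 they were 0.079 and 0.067, against 0.225. RPL18B went from 1.65 and 1.53 to 2.78 and 2.41 (0.70 ± 0.14, limma adjusted p = 0.0097), a call lost without untreated replicate 2 (0.0903), and it was called after scaling to protein-coding features as well (0.35, 0.0475). Many ribosomal protein genes have a near-identical copy, so their reads are uncertain.

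**Figure D4:**
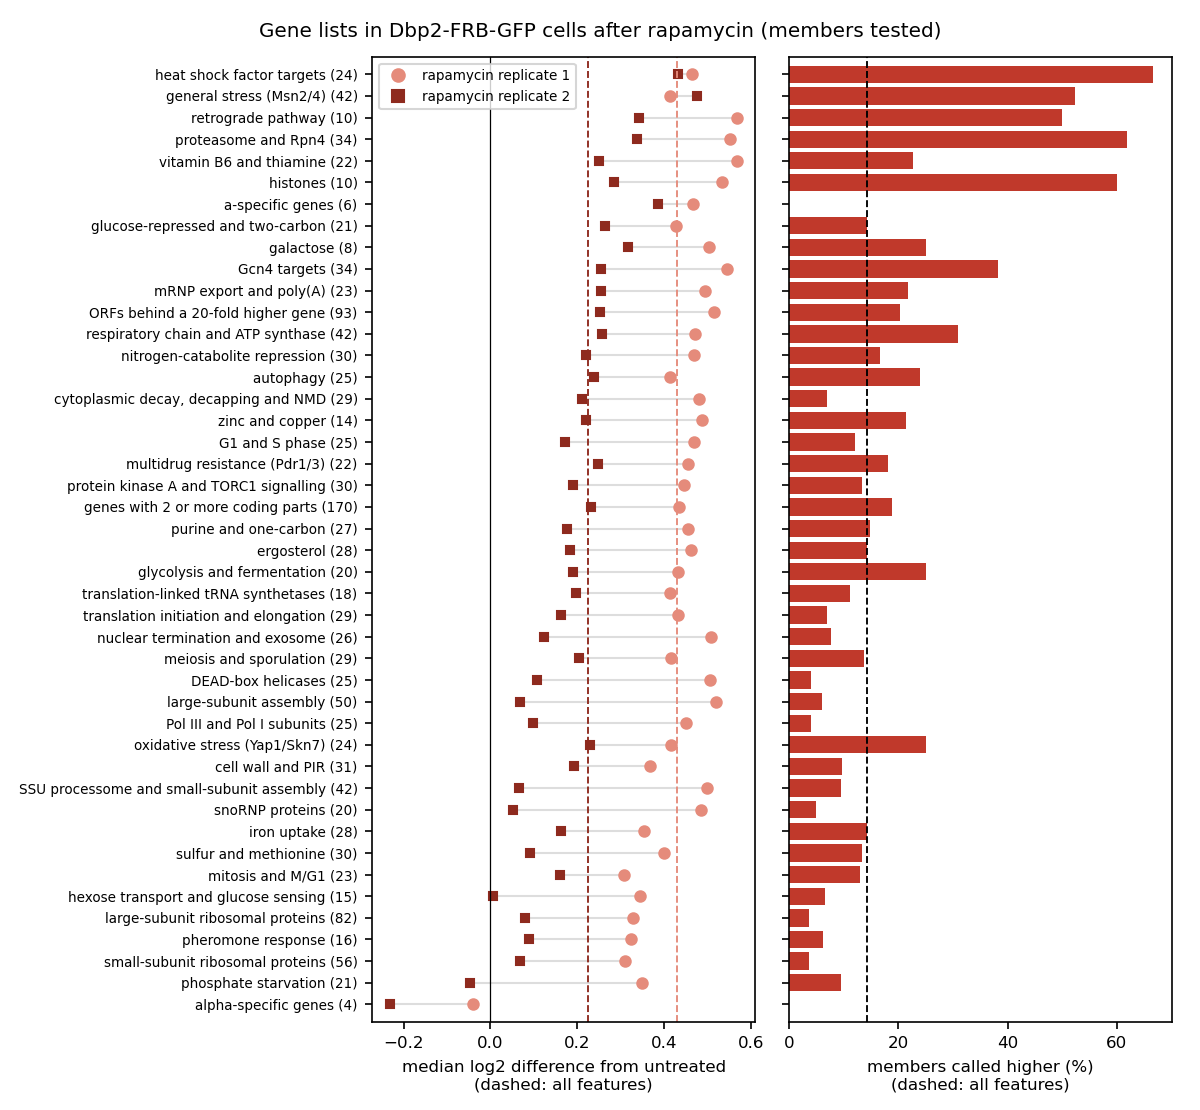
Gene lists, with the number of members tested, in Dbp2-FRB-GFP cells after rapamycin. The left panel gives each list's median log2 difference from the untreated mean in each treated replicate, and the right panel the share of members called higher; dashed lines give the same for all features. Ribosome assembly genes lie far apart between the treated replicates. Heat shock and stress genes lie close, which puts them clearly above the line of all features in replicate 2 only. Untreated replicates, which differed for stress genes (0.186 and −0.186), are not drawn.

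In the plot of lists the lower end holds the ribosomal protein, phosphate and α-specific genes and the upper end the heat shock, stress, retrograde and proteasome genes. Phosphate-starvation genes had a median of 0.14 with 2 of 21 called higher. One of these, PHM8, a nucleotidase, went from 3.27 and 3.07 to 5.29 and 5.11 (0.71 ± 0.13, limma adjusted p = 0.00597, and 0.0643 without untreated replicate 2). Of galactose, oxidative stress and glycolytic genes 2 of 8, 6 of 24 and 5 of 20 were called higher, against 14.2% of all and 17.6% of protein-coding features, with medians of 0.394, 0.28 and 0.309. Calls of these lists turned on single libraries, as did those of all features.

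The α-specific genes were the 1 list with a median below 0: −0.133, and −0.485 after scaling to protein-coding features, over 4 genes. MF(ALPHA)2, which encodes the mating pheromone α-factor, had densities of 2.78 and 2.49 in untreated and 1.73 and 1.58 in treated tagged cells. It fell by 0.67 ± 0.13 (limma adjusted p = 0.0069), a call lost without untreated replicate 1 (0.0564), and by 1.02 after scaling to protein-coding features (0.0128). In parental cells it had 25.7 and 26.9 without and 28.0 and 24.9 with the drug, groups that overlapped at a level far above that of the tagged strain. STE3, named after its values were seen, stood at −0.15 ± 0.14 on the spike-in scale (0.369) and was called lower after scaling to protein-coding features (−0.50, 0.00754). The other features called lower after that scaling included the ribosomal protein genes RPP1B, RPL23B, RPL24B and RPS7B and the hexose transporter genes HXT1 and HXT2, with spike-in values of −0.18, −0.03, 0.02, 0.05, −0.03 and −0.21, none of them called on the spike-in scale.

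Open reading frames that lie behind a highly expressed gene stood near the background. Of 93 open reading frames within 500 nt behind a same-strand gene of at least 20-fold higher density, 19 were called higher (20.4%, median 0.369), against 17.6% of protein-coding features (median 0.339) and 14.2% of all features. RRT5 lies 298 nt behind the ribosomal protein gene RPL29. Its density was 0.0691 and 0.0595 in untreated and 0.264 and 0.199 in treated tagged cells and at most 0.0110 in the 4 parental libraries, and it rose by 1.73 ± 0.24 (limma adjusted p = 0.000413). YMR230W-A lies 126 nt behind RPS10B, named by no list and after its values were seen. It had 1.48 and 1.19 in untreated and 3.12 and 2.72 in treated tagged cells, and 0.0642 to 0.111 in the parental libraries (1.13 ± 0.20). REC102, which acts in meiotic recombination, went from 36 and 39 to 82 and 62 reads (1.104 ± 0.19). These 3 were called in all 5 fits. Calls of the list turned on single libraries. Its medians without untreated replicates 1 and 2 and treated replicates 1 and 2 were 0.398, 0.363, 0.252 and 0.514. Those of protein-coding features were 0.369, 0.306, 0.227 and 0.456.

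The same comparison was made in the parental strain, which lacks the tag. There limma called 3 of 9640 features (0.0311%), with 527 at an unadjusted p under 0.05 against 4358 in the tagged strain: the cell wall gene PIR3 and XUT0992 higher and XUT0807 lower. PIR3 was called in both strains, at 0.90 in parental and 0.65 in tagged cells, where it was lost without untreated replicate 2 (0.237). The 1369 features called higher in tagged cells had a median of 0.541 there. In parental cells their median was 0.127, against 0.103 for all features, and 1100 of them were above 0, against 7559 of all 9640. These medians are a description, since the features were chosen on the tagged strain. The difference between the strains' responses was called for 4 features (0.0415%), with 935 at an unadjusted p under 0.05. It was 1.23 ± 0.18 for snR56 (0.00802), 1.18 ± 0.20 for NUT0013 (0.0199) and 2.01 ± 0.34 for RRT5 (0.0199). It was −1.90 ± 0.33 for the asparaginase gene ASP3-1 (0.0199), which went from 30 and 18 to 5 and 5 reads in tagged cells and has near-identical copies. RRT5 was lost without parental untreated replicate 2 (0.107) and ASP3-1 without parental untreated replicate 1 (0.0899), and all 4 were lost after scaling to protein-coding features (0.133 to 0.377). No other feature's response was shown to differ between the strains.

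**Figure D5:**
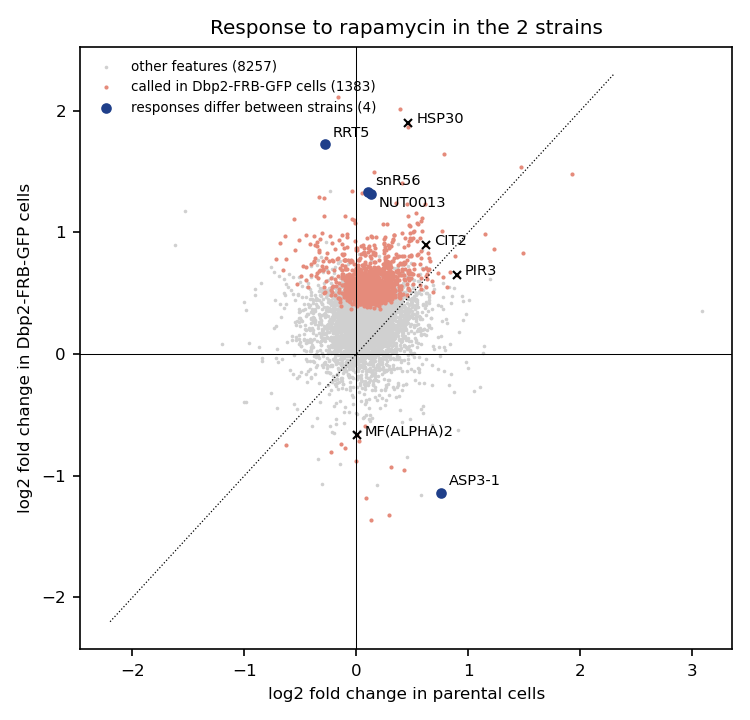
Log2 fold change after rapamycin in Dbp2-FRB-GFP cells (y axis) against that in parental cells (x axis), with 1 point per feature; red marks features called in tagged cells and blue the 4 whose responses differ between strains, and the dotted line marks equal change. Most points lie above the dotted line, and snR56, NUT0013, RRT5 and ASP3-1 lie apart.

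The plot of the responses of both strains shows the tagged strain's shift as the position of most points above the line of equal change, with a median difference of 0.217 over all features. That median was 0.117 without treated tagged replicate 1, 0.119 without parental untreated replicate 2, 0.32 without treated tagged replicate 2 and 0.186 to 0.318 without 1 of the other libraries. With protein-coding scaling it stood at −0.02, and with quantile normalization at −0.004.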

How the data were processed

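Total RNA of 8 yeast libraries was sequenced, and the 4 of Dbp2-FRB-GFP cells are the subject. Per the submitters' processing notes, Trim Galore, HISAT2 2.2.0, the R64 genome, featureCounts 2.0.0 and DESeq2 were used; how strands were treated in counting the sources used here do not say. The table that the authors deposited holds signal values, as reads per nucleotide, of 10891 features (92 of them ERCC spike-ins), per the file headers.

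Each value equalled a whole number of reads over a length and over a factor of its library, which matched the median of ratios over the 77 spike-ins read in every library. With lengths up to 40000 nt tried, 100.0% of positive values came out whole within 0.01 reads, partly by construction, and 684 of 5900 coding features did so at the reference length. Recovered reads give depth and feed 1 alternative, voom, which called 2991 features higher and 17 lower.

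Differences were tested with limma 3.58.1 in R 4.3.3, with a trend, on log2(density + 0.007347), a pseudocount set at the 5th percentile. Features with a mean under 0.01342 (10th percentile) were left out. All 8 libraries shared 1 spread (4 residual and 18.34 prior degrees of freedom). Tests are two-sided, with Benjamini-Hochberg adjustment over 9640 features. An exact permutation test of 2 against 2 libraries cannot reach 0.05, so none was run. Python 3.11.15 with numpy 2.4.6, pandas 2.3.3 and matplotlib 3.10.9 handled tables, motif searches and plots. The fit was also run on simulated data without a general shift, a setting unlike these data, so that run is no support for the calls.

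The members and lists were chosen with earlier results of these data known. The rule names DBP2, its neighbours, the genotype markers, those of the 10 highest and 10 lowest changes that are called and do not overlap, up to 5 called features of each noncoding class by lowest p in each direction, the 4 list members with the lowest p among those called in each list, and the called interactions; others are said to be named after their values were seen. DUR1,2, ARG5,6, AAD16, ADE5,7 and IMD1 were not matched. Alternatives were other pseudocounts, filters, scalings, no trend, a replicate block, a 1.5-fold minimum, the 4 libraries of the strain alone and leaving out each library; voom and a minimum of 50 mean reads were further ones, the latter chosen after seeing the data. Without a library its group's lone sample is assumed to vary like the others.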

Additional observations from a re-analysis of the deposited data

Results flagged for a closer look

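The responses of the strains to rapamycin differed for 4 features by limma's test of the difference over 9640 features (log2 response in Dbp2-FRB-GFP cells minus that in parental cells). The difference was 1.232 for snR56 (adjusted p = 0.00802), called without each of the 8 libraries in turn and not after scaling to protein-coding features (0.133), quantile normalization (0.0603), without a trend (0.0683) or with a 1.5-fold minimum (1.0). It was 1.183 for NUT0013 (0.0199), also called without each library, and not called without a filter (0.0969), after scaling to protein-coding features (0.264) or to snoRNAs (0.0509), with quantile normalization (0.254), without a trend (0.0683) or with a 1.5-fold minimum (1.0). It was 2.008 for RRT5 (0.0199), which had at most 0.0110 reads per nucleotide in parental libraries. That call was lost with the pseudocount at the 1st percentile (0.0824), without a filter (0.12), after scaling to protein-coding features (0.377), with quantile normalization (0.371), without a trend (0.0683), with a 1.5-fold minimum (1.0) and without parental untreated replicate 2 (0.107). It was −1.9 for ASP3-1 (0.0199), read 30, 18, 5 and 5 times in the tagged libraries. It was lost without a filter (0.112), after scaling to protein-coding features (0.264), with quantile normalization (0.29), with a 1.5-fold minimum (1.0) and without parental untreated replicate 1 (0.0899), and the 25th percentile filter and the minimum of 50 reads left it out.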

How the results depend on the processing

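Counts moved by over 1.5 times with the filter, scaling and spread. Features called higher (1369) were 274 without a filter, 2519 with a filter at the 25th percentile, 5 scaled to protein-coding features, 171 scaled to snoRNAs, 2 with quantile normalization, 242 without a trend, 883 with the replicate block, 5 with a 1.5-fold minimum, 2991 with voom, 2748 with at least 50 reads and 112 to 4689 without 1 library. Features called lower (14) were 8 without a filter, 3 with quantiles, 8 without a trend, 24 with the block, 0 with a 1.5-fold minimum, 30 in the 4 libraries alone, 8 with 50 reads and 11 to 37 without 1 library. XUTs called higher (147) were 228 with a pseudocount at the 20th percentile, 31 without a filter, 0 scaled to protein-coding features, 39 scaled to snoRNAs, 0 with quantiles, 49 without a trend, 1 with a 1.5-fold minimum, 261 with voom, 247 in the 4 libraries and 26 to 377 without 1 library. XUTs called lower (2) were 1 with a pseudocount at the 1st percentile, 5 with the 25th percentile filter, 1 scaled to snoRNAs, 5 with the block, 1 with voom, 6 in the 4 libraries, 0 in the other settings that moved them and 0 to 8 without 1 library. Parental calls (3) were 10, 0, 61, 0, 46, 0, 55, 0, 23, 63 and 24 with the 20th percentile pseudocount, no filter, the 25th percentile filter, the 3 scalings in that order, the block, a 1.5-fold minimum, voom, the parental libraries alone and 50 reads, and 1 to 77 without 1 library. Interaction calls (4) were 9, 1, 73, 0, 45, 0, 99, 0, 16 and 22 in these settings except the strain alone, and 8 to 123 without 1 library.

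DBP2 was −0.14 scaled to protein-coding features, −0.104 with quantiles and −0.085 to 0.511 without 1 library; RPC19 was −0.117, −0.121 and −0.036 to 0.507, TOR1 −0.119 and −0.133 and RPL13A −0.086 and −0.086 under the same scalings. Of 155 named features called, 54, 34, 54 and 152 kept their call without untreated replicates 1 and 2 and treated replicates 1 and 2, 6 scaled to protein-coding features and 103 with the block, and none changed sign. The main fit did not pair samples by replicate number. Deviations of same-numbered libraries correlated at −0.136 to 0.152, which with 2 libraries a group cannot show whether same-numbered cultures were handled together. The cause of these differences was not tested. With 2 libraries a group and low reads for many noncoding features, small changes were not detectable at this depth.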
